A study of Mus musculus with 16 samples.

Results

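The hearts of mice taken 72 h after the start of reperfusion were compared with the hearts of mice that had sham surgery. The comparison takes 8 of the 16 arrays of the series, 4 labelled as reperfused for 72 h and 4 labelled as sham, and all 19505 genes to which the array's annotation gives a symbol. All animals were wild-type male C57BL/6 mice, 10 weeks of age. In the reperfused group a ligature closed the left anterior descending coronary artery, the vessel to the front of the left ventricle, for 30 min before it was released. The labels of the sham hearts give no time after surgery, and those of all groups give neither the part of the heart that was taken nor the time of day. The other arrays of the series are from hearts taken at 6 h and 24 h, with 4 arrays each, and the 24 h hearts are used at the end to place the 72 h values in time. The series title names 0, 24, 48 and 72 hours, whereas the sample labels name sham, 6 h, 24 h and 72 h, and the labels were followed.

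When blood returns to heart muscle after a coronary artery has been closed, part of the muscle in its territory dies and is cleared and replaced. Neutrophils enter first, followed by monocytes that become macrophages and remove dead cells and debris. Fibroblasts of the heart then divide, lay down collagen and other matrix, and in part take on contractile features as myofibroblasts. Surviving heart muscle cells change their metabolism and re-express genes of the fetal heart. Each array was made from RNA of heart tissue, so every value mixes these cells, and fewer cells of a type and less RNA per cell cannot be told apart.

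Expression is given as the log2 value that the authors deposited, in which 1 unit is a 2-fold step. Values of single hearts are listed in the order sham 2, 3, 4 and 5 and then 72 h hearts 20, 21, 22 and 23, which are the numbers in the sample titles. A difference is the mean at 72 h minus the mean in sham, with its standard error after the ± sign, and was called when the limma p-value, adjusted by the Benjamini-Hochberg method over all genes, was below 0.05. A value under 6.76, below which 75% of the negative control probe sets lay, is described here as under the background level. Of the 19505 genes, 2247 (11.5%) rose and 2004 (10.3%) fell, and 1160 (5.95%) rose and 310 (1.59%) fell by at least 2-fold. A called rise of 16-fold or more was seen for 51 genes (0.261%) and a called fall of 4-fold or more for 12 (0.0615%), and the median gene differed by -0.09. At an unadjusted limma p below 0.05, 6464 genes (33.1%) differed. The hybridization spike-ins, bacterial transcripts added in equal amounts before hybridization, were 0.50 lower at 72 h (10.04 ± 0.14 against 10.54 ± 0.06, SD, n = 4 each, two-sided exact permutation p = 0.0286, or 0.0571 adjusted over 6 array measures). No smaller p than 0.0286 can be had from 4 against 4 arrays. When the arrays were centred on these spike-ins the median difference of all genes became 0.40 and the calls became 7270 higher and 247 lower. With centring on the poly-A spike-ins they became 2752 and 590 with a median of 0.09, and with centring on the median gene 1898 and 3532 with a median of -0.20. Groups of genes that fell against sham are therefore also given with centring on the hybridization spike-ins. Defining genes of heart muscle checked the tissue label: Myh6, Myl2 and Tnnt2 were between 17.79 and 18.98 on all 4 sham arrays.

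The 15 largest rises included matrix genes, matrix inhibitors and genes of macrophages. Timp1, a secreted inhibitor of matrix metalloproteinases, rose most. It read 5.17, 4.59, 5.32 and 5.01 on the sham arrays and 13.16, 14.74, 11.19 and 13.72 at 72 h, a difference of 8.18 ± 0.50 (adjusted p = 1.22e-09). All 4 sham hearts were under the background level, so the rise was at least 87.1-fold. Heart 22 had the lowest and heart 21 the highest of the 72 h values, and the groups did not overlap. Tnc, the matrix glycoprotein tenascin C, read 5.54, 4.79, 4.89 and 4.95 in sham and 13.14, 12.90, 12.00 and 13.58 at 72 h, a difference of 7.86 ± 0.36 (adjusted p = 5.04e-11) and at least 70.8-fold. Gpnmb, a transmembrane glycoprotein of macrophages loaded with debris, read 5.48, 6.01, 6.01 and 5.58 and then 13.77, 12.69, 12.54 and 14.21, a difference of 7.53 ± 0.38 (adjusted p = 1.78e-10) and at least 93.2-fold. In both genes every 72 h heart was more than 6 log2 units above every sham heart. The next 12 rises ran from 6.39 for Mpeg1, a pore-forming protein of macrophages, down to 5.38 for the macrophage surface protein Ms4a7. Between them lay the collagen cross-linking enzyme Lox (6.07), fibronectin Fn1 (5.93), the heme-degrading enzyme Hmox1 (5.83), Col1a1 (5.78), periostin Postn (5.73), Cthrc1 (5.68), galectin 3 Lgals3 (5.63), the protease inhibitor Serpina3n (5.54), Col3a1 (5.54) and Col1a2 (5.46). Hmox1 was the most uneven of these at 72 h, with 12.57, 15.11, 11.32 and 14.96 in the 4 hearts against 7.58, 7.86, 7.66 and 7.54 in sham.

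The 15 largest falls were smaller, between -2.88 and -1.86. Scd4, a stearoyl-CoA desaturase of the heart, read 7.43, 7.07, 7.81 and 8.05 in sham and 4.70, 4.59, 4.54 and 5.04 at 72 h, a difference of -2.88 ± 0.47 (adjusted p = 0.000155). All 72 h values lay under the background level, so the fall was at least 1.78-fold. Ciart, a repressor of the circadian clock, fell by 2.44, from 9.79 ± 0.58 (SD) to 7.34 ± 0.72 (n = 4 each, adjusted p = 4.49e-05). Myot, the Z-disc protein myotilin, read 12.65, 11.72, 11.91 and 11.61 in sham and 9.60, 9.60, 10.00 and 9.18 at 72 h, 5.2-fold lower with -2.38 ± 0.31 (adjusted p = 1.39e-05). Tuba4a, an alpha-tubulin, read 15.16, 14.88, 14.79 and 14.93 and then 12.10, 12.83, 12.47 and 13.22, 4.87-fold lower with -2.29 ± 0.21 (adjusted p = 1.85e-07). In Myot and Tuba4a the highest 72 h heart was more than 1 log2 unit below the lowest sham heart. Timp4, the metalloproteinase inhibitor most typical of heart muscle, fell by 2.25 (adjusted p = 0.000278) while Timp1 rose. The others were the nuclear receptor Nr4a3 (-2.19), the phosphatase Dusp18 (-2.12), the alpha-kinase Alpk2 (-2.04), the prostaglandin D synthase Ptgds (-1.90), the ADP receptor P2ry1 (-1.86), and Vwa3a (-2.09), Abhd18 (-1.95) and Mrgprh (-1.90). Retnla (-2.18) and Lrrc52 (-2.16) had means under the background level in both groups, and in Lrrc52 sham heart 5 read 4.51 where the other sham hearts read 6.18 to 7.63. These 15 falls kept their direction and their call under each scaling.

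**Figure D1:**
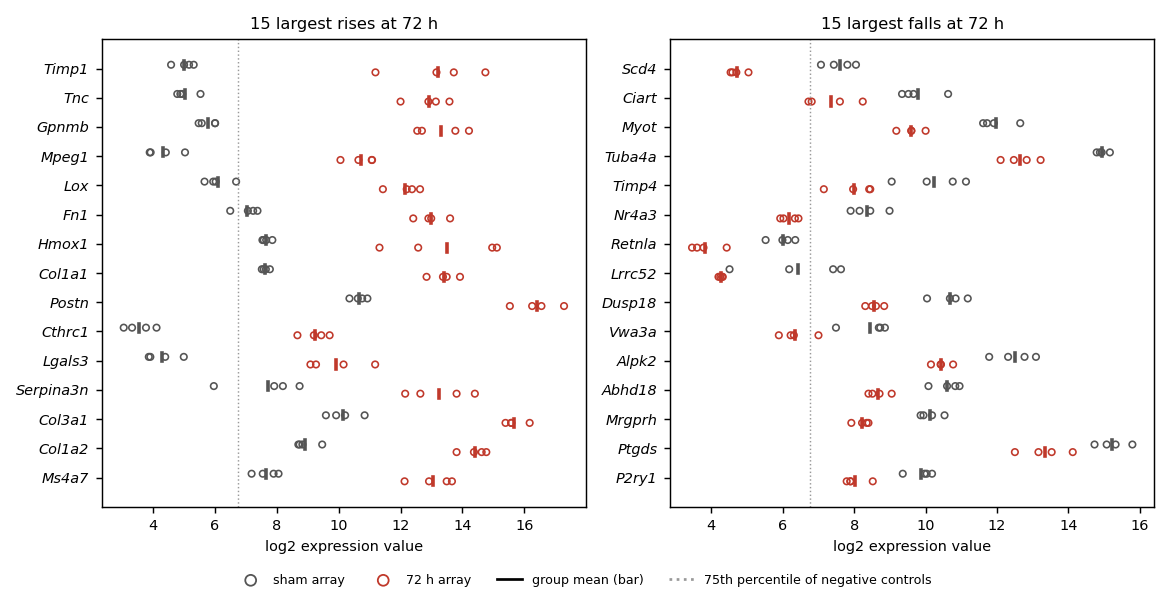
The 15 largest rises (left) and the 15 largest falls (right) at 72 h, by the rule that the arrays of the groups do not overlap. The horizontal axis is the deposited log2 value; grey circles are the 4 sham arrays, red circles the 4 arrays at 72 h, short bars the group means, and the dotted line is the background level of 6.76. Timp1, Tnc and Gpnmb move from under that line to between 11.19 and 14.74, and the falls on the right are shorter.

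Nearly every measured gene of the mitosis list, the genes of cell division, rose. Of the 37 mitosis genes measured, 35 rose and none fell, where 11.5% of all genes rose, and the median difference was 2.41 against -0.09 for all genes. Mki67, the proliferation marker Ki-67, read 7.23, 6.18, 5.67 and 8.61 in sham and 11.29, 11.65, 10.94 and 12.45 at 72 h, a difference of 4.66 ± 0.57 (adjusted p = 7.09e-06). Sham heart 5 was the highest sham heart for Mki67, at 8.61, and still lay below the lowest 72 h heart. Plk1, a kinase that drives entry into mitosis, read 4.66, 4.58, 4.97 and 5.02 in sham and 8.38, 9.33, 8.26 and 9.75 at 72 h, a difference of 4.12 ± 0.41 (adjusted p = 5.12e-07) and at least 4.5-fold. Ccnb2, a B-type cyclin, rose by 3.90, the ubiquitin carrier Ube2c by 3.85 and the kinetochore motor Cenpe by 3.71. For Cdk1, the kinase bound by B-type cyclins, both groups were under the background level (2.88, 2.97, 2.73 and 3.02 in sham and 5.41, 6.04, 4.92 and 6.29 at 72 h), and the difference was 2.76 ± 0.30 (adjusted p = 1.51e-06). In 16 of the 37 genes both group means were under that level, so their folds are not read. The mean over the list stood 1.87 to 2.98 above the sham mean in the 4 hearts at 72 h, and 0.48 above it in sham heart 5 against -0.19 to -0.13 in the other sham hearts.

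DNA replication genes rose less. Of 27 measured, 17 rose and none fell, with a median of 0.72, and without 72 h heart 23 the count was 11. Sham means were under the background level in 22 of the 27. In 16 both group means were under it, so their folds are not read. The largest rises were those of Prim1, the primase subunit (2.31 ± 0.26, adjusted p = 2.78e-06), Tyms, thymidylate synthase (1.97 ± 0.18, adjusted p = 2.11e-07), and Mcm3, a part of the replicative helicase (1.89 ± 0.25, adjusted p = 1.73e-05). Among 15 cell cycle inhibitors and p53 targets, none rose, and Mdm2, which degrades p53, and the cyclin kinase inhibitor Cdkn1c fell, a share of 13.3% against 10.3% of all genes. At an unadjusted limma p below 0.05, 2 of these 15 were higher and 3 lower. Under hybridization spike-in centring 9 rose and none fell. The fall of Cdkn1c by 0.48 lost its call without sham heart 2 or without 72 h heart 20, and the difference was 0.02 with centring on the hybridization spike-ins.

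The promoters of these division genes are shown because 2 short motifs recur in them. CCAAT, the box bound by NF-Y, and TTTGAA, the cell cycle homology region, were searched on both strands in the RefSeq promoter table (build GRCm38.p6, 250 bases before to 50 bases after each start). Promoters were found for 30 of the 37 mitosis genes, as 32 starts. CCAAT was present in 78.1% of them against 37.9% of the 19143 promoters of all genes tested, TTTGAA in 78.1% against 15.3%, and both together in 71.9% against 6.19%. In the 27 promoters of DNA replication genes, CCAAT was present in 51.9% and TTTGAA in 11.1%, whereas TTTGGCGC, a form of the E2F site, was present in 18.5% against 0.679% of all promoters. TTTCCCGC, another form of it, was present in 14.8% against 1.47%. CCAAT was also present in 71.4% of the 21 promoters of TCA cycle enzymes, a list whose called genes fell. A match describes letters in the sequence, not bound protein. Printed are the 3 mitosis genes and the 1 replication gene with the largest rise among those holding their motifs, from 250 bases before the start to 30 after it, 5′ to 3′ along the gene. Capitals mark CCAAT and TTTGAA or their reverse complements ATTGG and TTCAAA in the mitosis genes. In Mcm5 they mark only the reverse complement of TTTGGCGC, and matches to CCAAT there are left in lower case. In Ube2c, CCAAT and ATTGG overlap once.
Mki67 (chr7:135716350-135716629, minus strand): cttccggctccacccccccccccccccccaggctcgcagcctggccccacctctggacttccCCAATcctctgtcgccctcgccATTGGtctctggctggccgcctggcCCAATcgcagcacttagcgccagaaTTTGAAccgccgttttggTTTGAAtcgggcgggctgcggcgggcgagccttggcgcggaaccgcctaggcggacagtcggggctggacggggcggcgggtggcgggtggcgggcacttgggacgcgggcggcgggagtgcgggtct
Ccnb2 (chr9:70421525-70421804, minus strand): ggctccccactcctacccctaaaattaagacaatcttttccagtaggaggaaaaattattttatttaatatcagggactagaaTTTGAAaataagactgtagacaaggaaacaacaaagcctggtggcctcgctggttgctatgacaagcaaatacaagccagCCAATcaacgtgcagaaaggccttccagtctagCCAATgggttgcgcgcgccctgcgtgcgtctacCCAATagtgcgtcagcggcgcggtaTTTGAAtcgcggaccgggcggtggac
Ube2c (chr2:164769679-164769958, plus strand): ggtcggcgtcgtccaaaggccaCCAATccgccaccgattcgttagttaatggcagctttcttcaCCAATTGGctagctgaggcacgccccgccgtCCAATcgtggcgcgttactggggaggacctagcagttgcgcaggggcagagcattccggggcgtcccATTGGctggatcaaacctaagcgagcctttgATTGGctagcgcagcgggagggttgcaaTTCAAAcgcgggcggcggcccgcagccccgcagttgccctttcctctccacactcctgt
Mcm5 (chr8:75109259-75109538, plus strand): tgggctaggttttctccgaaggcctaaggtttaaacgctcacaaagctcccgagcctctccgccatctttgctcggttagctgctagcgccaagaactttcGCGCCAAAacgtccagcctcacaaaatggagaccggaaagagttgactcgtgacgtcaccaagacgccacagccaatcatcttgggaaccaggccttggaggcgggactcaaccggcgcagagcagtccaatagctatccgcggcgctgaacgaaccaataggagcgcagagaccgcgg
Mki67 holds 3 CCAAT and 2 TTTGAA matches, Ccnb2 holds 3 and 2, and Ube2c holds 6 and 1, both strands counted. Mcm5, another helicase subunit, rose by 1.54 with both group means under the background level.

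Matrix genes included the largest single rises. Of 18 collagen chains, 14 rose and none fell (median 1.44). Col1a1, a chain of type I collagen, the main fibre of scar, read 7.65, 7.52, 7.58 and 7.78 in sham and 13.92, 13.49, 12.84 and 13.37 at 72 h, 54.8-fold higher with 5.78 ± 0.22 (adjusted p = 4.64e-12). Col3a1 and Col1a2, its partners in scar fibres, rose 46.5-fold and 43.9-fold, and Col5a2 and Col5a1, which nucleate those fibres, by 3.26 and 3.11. The basement membrane chains Col4a1 and Col4a2 rose by 0.56 and 0.51. Both calls were lost with centring on the median gene and without sham heart 3 or 4 or 72 h heart 20 or 23, and that of Col4a1 also without sham heart 2 or 72 h heart 21. The enzymes that fold and cross-link collagen rose in 12 of 18 and fell in none (median 1.42). Lox, lysyl oxidase, read 6.03, 5.67, 6.69 and 5.95 in sham and 12.37, 12.20, 11.43 and 12.63 at 72 h, a difference of 6.07 ± 0.24 (adjusted p = 4.64e-12), and its relatives Loxl3 and Loxl1 rose by 4.04 and 2.69. The procollagen proteinase Bmp1 rose by 2.54 and its enhancer Pcolce by 2.46.

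Of 32 matricellular proteins, proteoglycans and elastic fibre genes, 27 rose and none fell (median 1.72). Postn, a matricellular protein of activated fibroblasts, read 10.62, 10.35, 10.76 and 10.93 in sham and 17.28, 15.53, 16.55 and 16.25 at 72 h, 53.2-fold higher with 5.73 ± 0.31 (adjusted p = 2.74e-10). Heart 20 was the highest and heart 21 the lowest of the 72 h hearts for this gene. Fn1 read 7.24, 6.50, 7.07 and 7.38 and then 12.90, 12.99, 12.41 and 13.60, 60.9-fold higher. Cthrc1, a secreted protein of collagen-producing fibroblasts, was under the background level in every sham heart and at 9.71, 9.20, 8.67 and 9.44 at 72 h, at least 5.63-fold higher. Thbs1, thrombospondin 1, rose by 4.66. Among matrix proteases and their inhibitors, 17 of 24 rose and 2 fell (median 1.46), shares of 70.8% and 8.33% against 11.5% and 10.3% of all genes. Beside Timp1 and Serpina3n, the macrophage elastase Mmp12 rose by 4.62, the membrane-bound protease Mmp14 by 4.15 and Adam12 by 3.73. Timp4 and Adamts9 (-1.04), a protease of the versican matrix, were the 2 that fell, and Adamts9 was not called under hybridization spike-in centring. The list mean was 0.24 above the sham mean in sham heart 4, whose Mmp12 read 8.66 where the other sham hearts read 5.13 to 5.86.

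Markers of fibroblast identity rose in 12 of 16 and fell in none (median 0.82). Without Col1a1, which the collagen list also holds, the largest were Thy1 (1.92), Mmp2, the gelatinase of fibroblasts (1.68), the matrix protein Dpt (1.65) and the transcription factor Tcf21 (1.17). Tcf21 read 6.86, 6.66, 7.30 and 7.18 in sham and 8.15, 7.51, 8.71 and 8.32 at 72 h and the groups did not overlap. Averaged over the list, the 72 h hearts stood 0.95 to 1.42 above the sham mean and the sham hearts between -0.18 and 0.18. The myofibroblast and smooth muscle list was mixed, with 8 of 19 higher and 2 lower (median 0.44), shares of 42.1% and 10.5% against 11.5% and 10.3% of all genes. Meox1 and Runx1, transcription factors of activated fibroblasts, rose by 2.32 and 1.99, the filamin Flna by 1.36, the fibroblast protease Fap by 1.35 and transgelin Tagln by 1.22. Acta2, smooth muscle actin and the usual mark of myofibroblasts, read 15.28, 15.17, 15.62 and 15.10 in sham and 15.49, 15.45, 15.20 and 15.96 at 72 h, a difference of 0.23 ± 0.24 (adjusted p = 0.549) with overlapping groups. Acta2 was called higher (0.73) with centring on the hybridization spike-ins. The 2 falls, Myh11 (-0.53) and Smtn (-0.44), genes of differentiated smooth muscle, were both lost without 72 h heart 23 or without sham heart 3, and 1 of them without sham heart 4 or 5 or 72 h heart 20 or 22. Neither was called under a spike-in scaling, and under hybridization spike-in centring the difference of Smtn was 0.06.

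In the TGF-beta and activin pathway, whose ligands drive collagen synthesis, 10 of 25 genes rose and 2 fell (median 0.39). These were shares of 40% and 8%, against 11.5% and 10.3% of all genes. The 3 TGF-beta ligands rose: Tgfb3 by 1.98, Tgfb1 by 1.48 and Tgfb2 by 1.45. The receptors Tgfbr1 (1.47) and Tgfbr2 (1.12) rose, whereas the co-receptor Tgfbr3 (-0.69) and the activin receptor Acvr2a (-0.84) fell, of which none was called under hybridization spike-in centring. Of the epicardial and mesothelial genes, 5 of 12 rose and none fell (median 0.32), the largest being Aldh1a2, an enzyme of retinoic acid synthesis (3.22 ± 0.21, adjusted p = 2.69e-09, at least 7.31-fold). The share that rose was 41.7%, against 11.5% of all genes, and in 8 of the 12 both group means were under the background level. Wt1, the defining transcription factor of the epicardium, differed by -0.39 (adjusted p = 0.188).

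**Figure D2:**
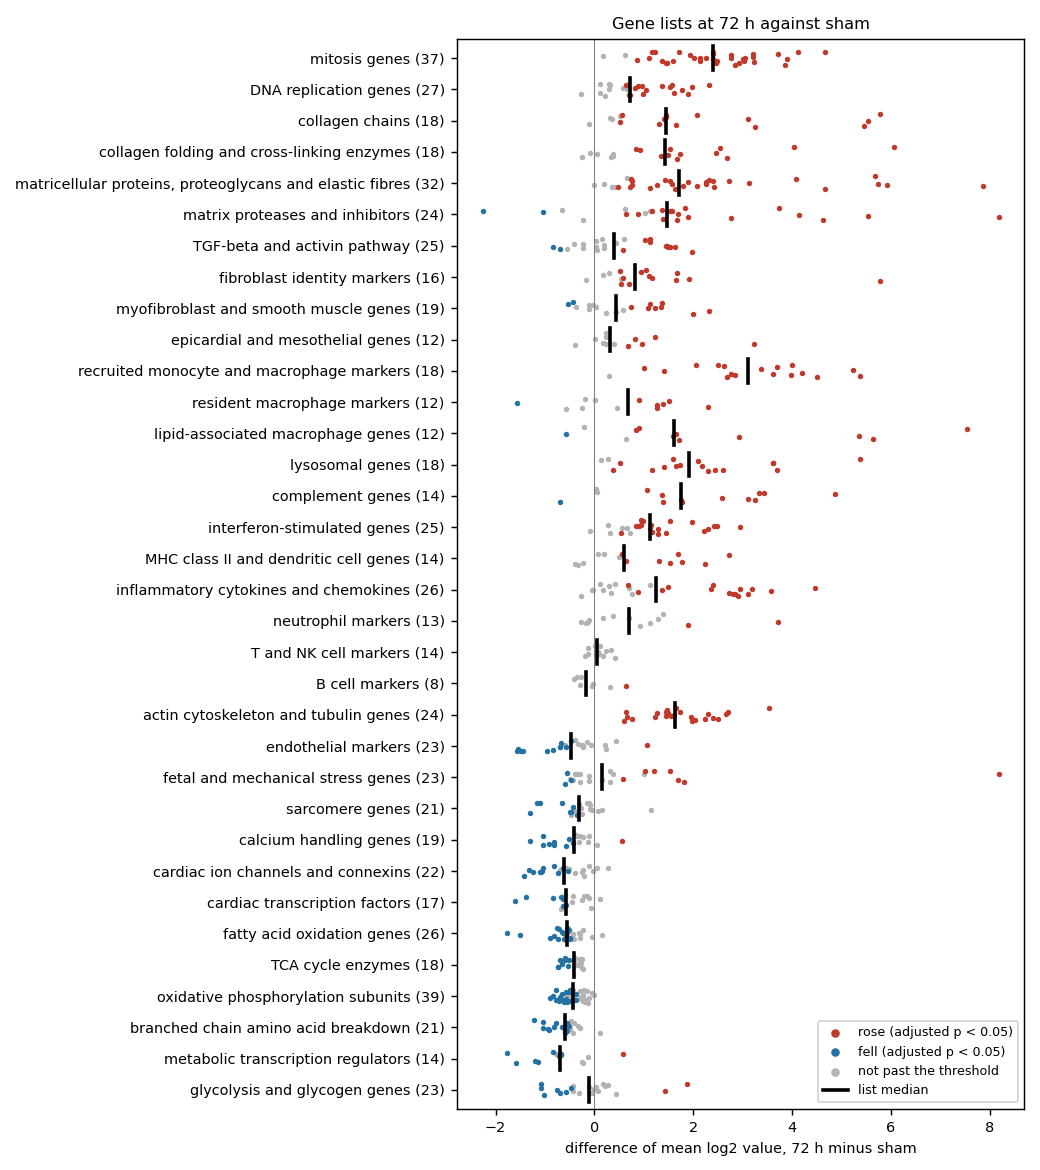
Every measured member of 34 gene lists, as the difference of mean log2 value between the 4 hearts at 72 h and the 4 sham hearts (horizontal axis). Red points rose and blue points fell with an adjusted p below 0.05, grey points did not pass, black bars are list medians, and numbers in brackets are members measured. Mitosis, recruited macrophage, lysosome and matrix lists lie mostly to the right of 0, with medians from 1.42 to 3.11, and muscle, metabolic and endothelial lists mostly to the left, with medians from -0.70 to -0.11.

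Macrophage genes rose as a group. Of 18 markers of recruited monocytes and macrophages, 17 rose and none fell, with a median of 3.11. The name is that of the list, and whether its members tell recruited from resident cells was not tested. Ms4a7 read 8.06, 7.19, 7.90 and 7.55 in sham and 13.66, 12.92, 12.13 and 13.49 at 72 h, 41.5-fold higher. Ccr2, the receptor by which monocytes follow CCL2, read 7.22, 7.17, 7.16 and 6.81 and then 12.52, 12.45, 11.67 and 12.64, 37.6-fold higher with 5.23 ± 0.46 (adjusted p = 1.26e-07). The integrin Itgam rose by 4.51, lysozyme Lyz2 by 4.20 and the Fc receptor Fcgr1 by 4.00. Arg1, arginase of wound macrophages, read 4.95, 5.07, 4.30 and 4.12 in sham and 6.95, 8.63, 6.01 and 8.21 at 72 h, a difference of 2.84 ± 0.53 (adjusted p = 0.000641). Heart 22 was the lowest 72 h heart for each of these 6 genes. The monocyte gene Ly6c2 (0.30) was the member that did not pass, and it was called higher (0.80) with centring on the hybridization spike-ins. The list mean stood 2.44 to 3.50 above sham at 72 h and between -0.06 and 0.15 in the sham hearts, of which heart 5 was the highest.

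Genes of lipid-laden macrophages were higher in 9 of 12 and lower in 1 (median 1.62). Trem2, the lipid-sensing receptor that defines these cells, read 4.85, 4.63, 4.37 and 4.75 in sham and 10.57, 10.25, 8.87 and 10.36 at 72 h, a difference of 5.36 ± 0.37 (adjusted p = 5.25e-09) and at least 9.51-fold. Lgals3, which binds sugars on dying cells, rose at least 8.97-fold. Apoe, the lipid carrier, read 14.49, 14.42, 14.52 and 14.65 and then 17.54, 17.61, 17.09 and 17.51, 7.56-fold higher. Heart 22 was the lowest 72 h heart for Trem2, Lgals3 and Apoe. The fatty acid carrier Fabp5 rose by 1.72, and Cd36 (-0.57), a scavenger receptor that heart muscle and endothelium also express, was the member that fell. Its call was lost under hybridization spike-in centring, where none of the 12 fell. Lysosomal genes rose in 16 of 18 and fell in none (median 1.92). Ctss, a cysteine protease of macrophages, read 8.26, 8.15, 8.65 and 8.58 in sham and 14.09, 13.85, 13.13 and 14.05 at 72 h, 41.3-fold higher with 5.37 ± 0.28 (adjusted p = 2.03e-10). The proton pump subunit Atp6v0d2 rose by 3.69, and Laptm5, Ctsz and Gla by 3.62, 3.62 and 2.61.

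Resident macrophage markers did not move together: 6 of 12 rose and 1 fell (median 0.68). The mannose receptor Mrc1 read 11.74, 11.94, 11.88 and 12.49 in sham and 14.39, 14.36, 14.24 and 14.25 at 72 h, 4.91-fold higher, and Folr2, Siglec1, Cbr2 and Vsig4 rose by 1.27 to 1.52, with Siglec1 and Vsig4 under the background level in both groups. Lyve1, which marks resident macrophages and lymphatic endothelium, read 11.76, 11.41, 11.37 and 10.93 and then 9.62, 10.43, 9.80 and 9.36, 2.95-fold lower with -1.56 ± 0.27 (adjusted p = 0.000311). Timd4, the marker of the self-renewing resident population, was under the background level in both groups with a difference of -0.58 (adjusted p = 0.0611). It was called lower without sham heart 2 or without 72 h heart 23, which makes 2 falls of the 12, and also with quantile normalization, median centring, array weights, only the 2 groups or only genes at or above the median gene.

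Complement genes rose in 11 of 14 and fell in 1 (median 1.76). The receptor C3ar1 read 8.33, 8.17, 8.67 and 8.69 in sham and 13.47, 13.24, 12.85 and 13.77 at 72 h, 29.2-fold higher. The 3 chains of C1q, the protein that starts the classical pathway, rose by 3.44 (C1qb), 3.34 (C1qa) and 3.25 (C1qc), and properdin Cfp by 3.10. Cd59a, which protects cells from complement lysis, fell by 0.69, a call that was lost under both spike-in scalings.

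Interferon-stimulated genes rose in 19 of 25 and fell in none (median 1.12). Cxcl10, a chemokine for T cells, read 3.66, 3.88, 4.86 and 4.66 in sham and 6.76, 7.13, 7.21 and 7.79 at 72 h, a difference of 2.95 ± 0.58 (adjusted p = 0.000994) and at least 1.38-fold. Oasl2 read 6.97, 7.11, 7.23 and 8.00 and then 10.19, 10.05, 9.38 and 9.64, 5.6-fold higher. The tetherin Bst2 rose by 2.42, the transcription factor Irf7 by 2.30 and the GTPase Mx1 by 2.21, the last 2 with both means under the background level. Sham heart 5 was the highest sham heart for Oasl2 and Bst2, and its list mean was 0.51 above the sham mean, where the 72 h hearts stood at 1.05 to 1.43. The promoters of these genes are shown because the core of the interferon-stimulated response element, GAAA repeated after any 2 bases and searched on both strands, was present in 45.5% of the 22 promoters found for 19 of the 25 genes. It was present in 3.35% of all promoters. Printed are the 3 members with the largest rise that hold it, with the match or its reverse complement in capitals, from the same RefSeq table and with the same limits. In Bst2, 2 matches overlap.
Cxcl10 (chr5:92348860-92349139, minus strand): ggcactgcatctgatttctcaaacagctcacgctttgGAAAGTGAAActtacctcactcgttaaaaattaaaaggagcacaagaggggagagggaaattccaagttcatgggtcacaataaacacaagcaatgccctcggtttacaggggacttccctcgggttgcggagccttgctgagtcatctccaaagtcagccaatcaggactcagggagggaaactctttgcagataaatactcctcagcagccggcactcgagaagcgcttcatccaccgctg
Bst2 (chr8:71537443-71537722, minus strand): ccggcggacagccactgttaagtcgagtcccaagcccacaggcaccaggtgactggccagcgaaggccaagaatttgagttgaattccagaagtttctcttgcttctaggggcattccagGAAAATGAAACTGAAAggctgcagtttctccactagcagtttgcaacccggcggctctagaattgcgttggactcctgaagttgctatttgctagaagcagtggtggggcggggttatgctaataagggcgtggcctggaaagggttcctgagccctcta
Ifit3 (chr19:34583279-34583558, plus strand): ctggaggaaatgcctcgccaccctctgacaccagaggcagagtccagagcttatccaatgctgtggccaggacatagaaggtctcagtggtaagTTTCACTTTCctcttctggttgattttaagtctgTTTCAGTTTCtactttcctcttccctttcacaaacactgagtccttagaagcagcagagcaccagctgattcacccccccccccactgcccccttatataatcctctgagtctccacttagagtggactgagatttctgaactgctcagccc
Ifit3, an antiviral RNA-binding protein, rose by 1.97, from 9.63 ± 0.66 (SD) to 11.60 ± 0.28.

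Inflammatory cytokines and chemokines rose in 15 of 26 and fell in none (median 1.25). Ccl12, a ligand of CCR2, rose most (4.46 ± 0.63, adjusted p = 3.26e-05), with sham heart 5 at 9.19 and the other sham hearts at 5.03 to 6.72. The neutrophil chemokine Cxcl5 rose by 3.58, and the monocyte chemokines Ccl8 and Ccl9 by 3.19 and 3.11, with Ccl8 under the background level in both groups. Ccl2 read 5.77, 5.38, 5.35 and 5.67 in sham and 7.43, 8.69, 7.96 and 9.35 at 72 h, a difference of 2.81 ± 0.41 (adjusted p = 4.61e-05) and at least 3.02-fold. Il6 rose by 2.40 (adjusted p = 0.00096) with both means under the background level. Il1b (1.12, adjusted p = 0.129) and Tnf (0.76, adjusted p = 0.133) did not pass. Both were called higher under both spike-in scalings, with array weights and in a fit of only the 2 groups, and Il1b also without 72 h heart 22 (1.50, adjusted p = 0.0448).

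Fewer markers of other leukocytes passed. Neutrophil markers rose in 2 of 13, a share of 15.4% against 11.5% of all genes (median 0.71): the receptor Csf3r (3.72) and the collagenase Mmp8 (1.89). S100a8, a protein abundant in neutrophils, read 4.99, 3.71, 3.98 and 2.68 in sham and 5.32, 6.41, 3.86 and 5.32 at 72 h, a difference of 1.39 with overlapping groups (adjusted p = 0.231). All 13 sham means and 12 of the 72 h means were under the background level, and the list mean stood 0.38 to 1.33 above sham. Under hybridization spike-in centring 6 of the 13 neutrophil markers rose and none fell (median 1.20), with S100a8 (1.88) called higher. MHC class II and dendritic cell genes rose in 8 of 14 and fell in none (median 0.60). In 10 of these 14 both group means were under the background level. The chains of the class II molecule, H2-Aa, H2-Eb1 and H2-Ab1, rose by 1.78, 1.53 and 1.30, the loading factors H2-DMb1 and H2-DMa by 2.73 and 1.70, and Cd209a by 2.24. H2-Aa read 9.68, 9.47, 10.29 and 10.16 in sham and 11.81, 11.93, 10.90 and 12.07 at 72 h. The defining genes of conventional dendritic cells, Flt3, Xcr1, Clec9a, Zbtb46 and Batf3, did not pass, with differences from -0.33 to 0.50. Clec9a was called higher with quantile normalization, under both spike-in scalings and with only the 2 groups, and Flt3 and Xcr1 under hybridization spike-in centring. No T or NK cell marker of 14 passed in limma (median 0.06, or 0.55 with 9 higher under hybridization spike-in centring), 1 was higher at an unadjusted p below 0.05, and 13 were under the background level in both groups. Of 8 B cell markers, Cd22 alone passed (0.65, both means under the background level), a share of 12.5% against 11.5% of all genes. Its call was lost without sham heart 4 or 72 h heart 20 or 21.

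All 24 genes of the actin cytoskeleton and tubulin list, which are most abundant in cells other than heart muscle, rose (median 1.63). Tuba4a, the alpha-tubulin described above that fell, is not in that list. The largest were L-plastin Lcp1 of leukocytes (3.53), Anxa2 (2.70), vimentin Vim (2.66), Arpc1b (2.51) and Anxa1 (2.41). Vim read 13.45, 13.38, 13.52 and 13.68 in sham and 16.41, 15.88, 15.84 and 16.55 at 72 h. Among 20 NRF2 target and antioxidant genes, 5 rose and 2 fell (median 0.28), shares of 25% and 10% against 11.5% and 10.3% of all genes. Beside Hmox1, the glutathione peroxidases Gpx1 and Gpx3 rose by 2.06 and 1.13 and the secreted dismutase Sod3 by 1.24. The mitochondrial dismutase Sod2 (-0.65) and the quinone reductase Nqo1 (-0.69) fell, and without sham heart 5 the falls numbered 4. Under hybridization spike-in centring 10 of the 20 rose and none fell.

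Heart muscle genes were lower in part, by amounts well under those of the rises. Of 21 sarcomere genes none rose and 8 fell (median -0.31, which is -0.22 relative to the median gene). The median turned to 0.18 with centring on the hybridization spike-ins, with 5 higher and 3 lower, and with the poly-A spike-ins it was -0.12 with 3 lower. At an unadjusted limma p below 0.05, none was higher. The titin cap protein Tcap was 15.11 ± 0.15 (SD) in sham and 13.81 ± 0.37 at 72 h, 2.47-fold lower, a difference of -1.31 ± 0.24 (adjusted p = 0.000595) with no overlap between the groups. The Z-disc and membrane-linked proteins Cmya5 and Ldb3 fell by 1.17 and 1.11. Myl3, a ventricular light chain, fell by 0.65, a call that was lost under both spike-in scalings. The filament genes Myl2 (-0.08), Tnnt2 (-0.05) and Tnnc1 (0.07) did not pass. With centring on the hybridization spike-ins the differences of Myl2 and Tnnt2 turned to 0.42 and 0.44 and were called, and Tnnc1 was called higher (0.57). Myh6, the fast adult myosin, read 17.88, 17.79, 17.82 and 17.96 in sham and 18.03, 17.98, 18.07 and 17.98 at 72 h, a difference of 0.15 ± 0.13 (adjusted p = 0.451). It was called higher (0.65) with centring on the hybridization spike-ins. Myh7, the slow fetal myosin, read 14.68, 14.88, 15.19 and 14.18 and then 14.24, 14.42, 14.23 and 14.31, a difference of -0.43 ± 0.24 (adjusted p = 0.217).

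The fetal and mechanical stress genes had 7 of 23 members higher and 3 lower (median 0.16), with Timp1, counted above, among the rises. The shares were 30.4% and 13%, against 11.5% and 10.3% of all genes. Nppa, the atrial natriuretic peptide, read 16.62, 16.73, 16.90 and 17.58 in sham and 19.52, 18.15, 18.02 and 18.93 at 72 h, 3.24-fold higher with 1.70 ± 0.28 (adjusted p = 0.000186). Nppb, the B-type peptide, read 11.95, 11.44, 12.12 and 13.44 in sham and 12.98, 12.14, 11.99 and 13.33 at 72 h, a difference of 0.38 ± 0.37 (adjusted p = 0.511) with overlapping groups. Acta1, skeletal actin re-expressed in the stressed heart, read 13.04, 13.21, 12.35 and 14.28 and then 13.67, 13.06, 13.06 and 12.68, a difference of -0.10 ± 0.32 (adjusted p = 0.865). Ankrd1, a titin-associated stress protein, rose by 1.54, with sham heart 5 at 18.27 and the other sham hearts at 16.62 to 16.79. Actn1 and Fhl1 rose by 1.81 and 1.20, and the muscle LIM proteins Csrp3 (-0.47) and Fhl2 (-0.60) and the repeat protein Xirp1 (-0.55) fell. Under either spike-in scaling no member of the list fell, and under hybridization spike-in centring the difference of Csrp3 was 0.03. Csrp3 also lost its call without sham heart 5 or 72 h heart 23, and Xirp1 without sham heart 2 or 3 or 72 h heart 21.

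Atrial markers were read to see whether the tissue taken differed between hearts. Of 11, 3 were higher and 2 lower (27.3% and 18.2% against 11.5% and 10.3% of all genes), with Nppa, Dkk3 (1.55) and Clu (1.55) higher and Stard10 (-0.71) and Tbx5 (-1.38) lower. The call of Stard10 was lost without sham heart 2 or 72 h heart 23 and under both spike-in scalings. The atrial light chain Myl4 read 7.91, 8.07, 7.73 and 8.00 in sham and 7.69, 9.76, 7.75 and 9.44 at 72 h, and Myl7 read 3.71, 3.93, 3.87 and 3.93 and then 3.58, 6.07, 4.19 and 6.18. Hearts 21 and 23 were high for both, neither gene passed, and Nppa was highest in heart 20, as given above. The part of these 2 hearts' atrial signal in the other results was not tested.

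Genes of calcium handling, ion channels and cardiac transcription control also fell in part. Of 19 calcium handling genes 9 fell and 1 rose (median -0.42), and under hybridization spike-in centring the median was 0.08 with none lower and 1 higher. The junctophilin Jph2, which ties the cell membrane to the calcium store, read 10.99, 10.59, 10.74 and 10.38 in sham and 9.39, 9.63, 9.79 and 9.72 at 72 h, 2.06-fold lower as deposited and not called under that centring. The calcium pump Atp2a2 (-0.10) and its inhibitor Pln (-0.13) did not pass. Of 22 ion channel and connexin genes 11 fell and none rose (median -0.61), and 4 fell and 2 rose with a median of -0.11 under the same centring. The 5 largest falls were in potassium channels and their subunits: Kcne1 (-1.43 ± 0.25, adjusted p = 0.000332), Kcnj12 (-1.33 ± 0.28, adjusted p = 0.00189), Kcnj3 (-1.25), Kcnh2 (-1.10) and Kcnj11 (-1.09). Kcnh2 was no longer called under hybridization spike-in centring. The connexin Gja1 differed by 0.27 (adjusted p = 0.225) and was called higher (0.77) under hybridization spike-in centring. Of 17 cardiac transcription factors 7 fell and none rose (median -0.58), led by Myocd, the co-activator of SRF (-1.61 ± 0.22, adjusted p = 2.1e-05), and Tbx5 (-1.38 ± 0.26, adjusted p = 0.00056). The count was 3 without sham heart 3, sham heart 4 or 72 h heart 21 and 4 without sham heart 2 or 72 h heart 23. Under hybridization spike-in centring 2 fell and 1 rose (median -0.09). At an unadjusted limma p below 0.05 none of the ion channel genes or transcription factors was higher.

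Genes of mitochondrial energy supply fell in part, and the number of falls depended on the scaling. Fatty acids are the main fuel of the adult heart, and of 26 genes of their oxidation 18 fell and none rose (median -0.55, or -0.46 relative to the median gene). Ppara, the nuclear receptor that switches these genes on, read 10.61, 10.90, 10.90 and 10.17 in sham and 8.57, 8.82, 9.35 and 8.75 at 72 h, 3.42-fold lower with -1.77 ± 0.27 (adjusted p = 7.96e-05). The thioesterase Acot2 read 15.91, 16.11, 15.80 and 15.73 and then 14.20, 14.31, 14.65 and 14.37, 2.83-fold lower with -1.50 ± 0.15 (adjusted p = 8.14e-07). Cpt1b, which admits fatty acids to the mitochondrion, fell by 0.89 and the dehydrogenase Acads by 0.82. Pdk4, the kinase that holds back glucose oxidation, read 13.26, 14.25, 13.09 and 13.09 in sham and 14.32, 12.70, 13.78 and 13.51 at 72 h, a difference of 0.15 ± 0.28 (adjusted p = 0.746). Of 18 enzymes of the TCA cycle 8 fell and none rose (median -0.41), of 39 subunits of oxidative phosphorylation 19 fell and none rose (-0.44), and of 21 enzymes of branched chain amino acid breakdown 14 fell and none rose (-0.59). Examples are Dlst of the TCA cycle (-0.74 ± 0.17, adjusted p = 0.00401), Cyc1, cytochrome c1 (-0.89 ± 0.19, adjusted p = 0.00197), and Bckdhb, of the enzyme that commits these amino acids to breakdown (-1.23 ± 0.22, adjusted p = 0.000312). In none of these 4 lists was a gene higher at an unadjusted limma p below 0.05.

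Under hybridization spike-in centring these falls mostly ended: 2 fatty acid oxidation genes fell (median -0.06), no TCA enzyme (0.09), no oxidative phosphorylation subunit with 3 higher (0.06), and 3 branched chain genes with 1 higher (-0.09). With the poly-A spike-ins 4, 0, 3 and 5 fell. Ppara, Acot2 and Bckdhb kept their calls under both, Cpt1b, Acads and Cyc1 lost theirs under the first, and Dlst lost its call under both. Without 72 h heart 23 the falls numbered 10 of the fatty acid oxidation genes and 10 of the oxidative phosphorylation subunits, and without heart 20 they numbered 11 and 11. Heart 22 had the smallest mean fall in all 4 lists, at -0.37, -0.24, -0.24 and -0.37.

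**Figure D3:**
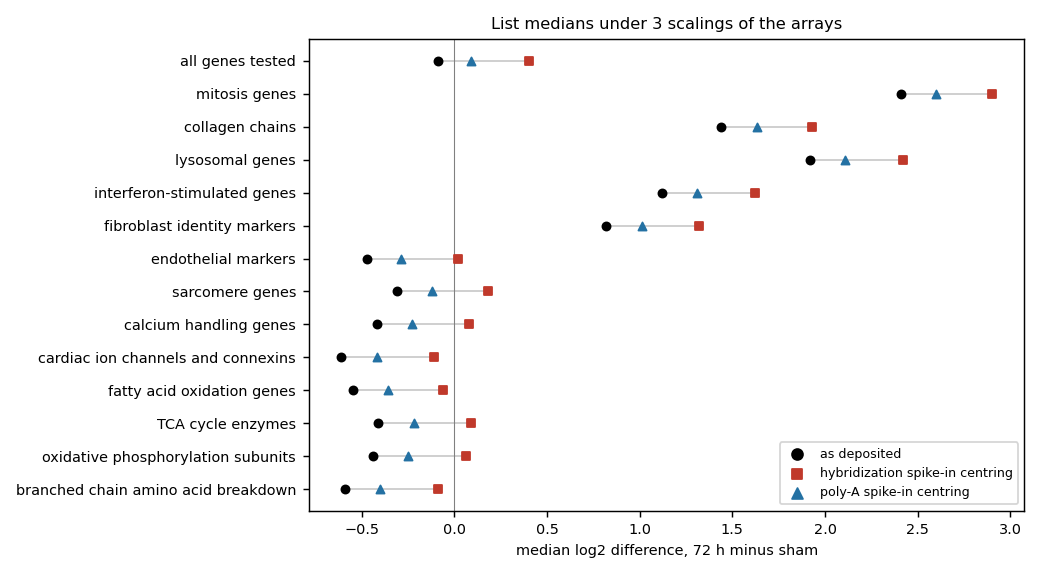
Median difference between 72 h and sham (horizontal axis, log2) for all genes and for 13 lists, with the values as deposited (black circles), with arrays centred on the poly-A spike-ins (blue triangles) and on the hybridization spike-ins (red squares). Centring shifts every list by the same amount: the median of all genes is at -0.09, 0.09 and 0.40, the mitosis genes stay above 2, and the fatty acid oxidation genes at -0.55, -0.36 and -0.06.

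The regulators of these pathways fell as well. Of 14 metabolic transcription regulators 9 fell and 1 rose (median -0.70), and under hybridization spike-in centring 4 fell and 1 rose (median -0.20). Beside Ppara, the clock-linked repressor Nr1d1 fell by 1.59, the retinoid receptor Rxrg by 1.21 and the estrogen-related receptor Esrrg by 1.14. The estrogen-related receptor element TCAAGGTCA was found in 1 promoter of a TCA cycle enzyme and in none of the fatty acid oxidation genes or oxidative phosphorylation subunits, and it was present in 0.303% of all promoters. Glycolysis and glycogen genes were split, with 2 of 23 higher and 7 lower (median -0.11). These were 8.7% and 30.4%, against 11.5% and 10.3% of all genes. The median turned to 0.39 with 9 higher and 3 lower under hybridization spike-in centring. The lactate exporter Slc16a3 rose by 1.87 and the liver-type phosphorylase Pygl by 1.42. The muscle enzymes Pgam2 (-1.08) and Gys1 (-1.01) and the monocarboxylate carrier Slc16a1 (-1.07) fell.

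Endothelial markers fell in 11 of 23 and rose in 1 (median -0.47), and under hybridization spike-in centring 4 fell and 3 rose (median 0.02). As deposited the shares were 47.8% and 4.35%, against 10.3% of all genes that fell and 11.5% that rose. Capillary genes were among those that fell: Car4, a membrane carbonic anhydrase, read 9.82, 9.78, 10.20 and 9.26 in sham and 8.13, 8.35, 8.14 and 8.25 at 72 h, 2.92-fold lower with -1.54 ± 0.21 (adjusted p = 2.66e-05). Gpihbp1, which holds lipoprotein lipase on the capillary wall, read 10.98, 11.53, 11.18 and 10.95 and then 9.25, 9.60, 10.09 and 9.77, 2.79-fold lower. The water channel Aqp1 fell by 1.44. The general endothelial genes Pecam1 (-0.26) and Cdh5 (-0.23) did not pass, and Plvap, of fenestrated endothelium, rose by 1.07. The list mean stood -0.65 to -0.43 from sham at 72 h, with heart 20 the lowest. Pericyte markers fell in 3 of 9, Kcnj8, Abcc9 and Higd1b, and rose in none, also at an unadjusted limma p below 0.05. The share that fell was 33.3%, against 10.3% of all genes. Higd1b was lost without sham heart 2 or 72 h heart 21 or 23. Under hybridization spike-in centring none of the 9 fell and 2 rose (median 0.11).

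Other cell types were read through their markers, beside 11.5% of all genes that rose and 10.3% that fell. Shares that rose and fell were 30.8% and 7.69% for lymphatic, mast cell and platelet markers, and 20% and 10% for nerve and glial markers. They were 7.14% and 14.3% for skeletal muscle markers, 0% and 12.5% for adipocyte markers and 0% and 33.3% for erythroid markers. Outside the erythroid list the shares that fell lay near that of all genes, and the counts are not read as changes of these cells. Of 13 markers of lymphatic vessels, mast cells and platelets 4 rose and 1 fell: the platelet chemokine Pf4, which macrophages also make, by 3.29, Pdpn by 2.30, Ppbp by 1.61 and the lymphatic chemokine Ccl21a by 1.52, with Prox1 lower (-0.95). Ppbp rested on heart 21, at 8.93 where the other 72 h hearts read 5.90 to 6.97, and was 1.01 (adjusted p = 0.0839) without it. Its call was also lost without sham heart 2 or 3, and that of Prox1 without 72 h heart 20 and under both spike-in scalings. The defining mast cell genes Cpa3 (0.16), Cma1 (-0.06), Mcpt4 (0.25) and Tpsb2 (0.16) did not pass. Under hybridization spike-in centring Mcpt4 (0.75) and Tpsb2 (0.66) were called higher, and 8 of the 13 rose and none fell. Of 10 nerve and glial markers Ncam1 (1.37) and Pmp22 (0.97) rose and Mbp (-0.64) fell, the last lost without sham heart 2 or 3 and under both spike-in scalings. Of 14 skeletal muscle markers Ckm, the muscle creatine kinase that heart also expresses, fell by 0.89, Myh1 by 0.65 and Tnnt3 rose by 0.51. Myh1 and Tnnt3 were under the background level in both groups and lost their calls without single arrays, Myh1 without any but sham heart 5 or 72 h heart 20 or 22 and Tnnt3 without any but 72 h heart 21 or 22. Without 72 h heart 21 or 23 or sham heart 2, 3 or 4 the skeletal list had 1 fall. In that list 2 of the 14 were higher and none was lower under hybridization spike-in centring (median 0.40), and the call of Ckm was lost (-0.40, adjusted p = 0.0591). Of 8 adipocyte markers Fabp4, which capillary endothelium also expresses, fell by 0.47. That call was lost without sham heart 3 or 4 or 72 h heart 21, and the difference was 0.02 with centring on the hybridization spike-ins. Of 3 erythroid markers Alas2 fell by 0.62, lost without sham heart 2 or 72 h heart 20 and under both spike-in scalings, and Epb42 (-0.02) and Slc4a1 (-0.22) did not pass. The part of these cells in the other results was not tested.

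Few acute stress genes passed. Of 20 immediate early genes Myc (2.16) and Egr2 (1.48), transcription factors of growth, rose and Nr4a3 fell, shares near those of all genes (median 0.25), and Fos (0.40) and Egr1 (-0.05) did not pass. Of 19 chaperones and folding genes of the endoplasmic reticulum 3 rose and 1 fell (median 0.02), shares of 15.8% and 5.26% against 11.5% and 10.3% of all genes. Pdia3, Ssr1 and Pdia6, of protein folding and import, rose by 1.11, 1.03 and 0.69, and the chaperone Hspa5 fell by 0.73, a call that was lost under hybridization spike-in centring, where 8 of the 19 rose. Pdia6 was lost without sham heart 2 or 3 or 72 h heart 20, 21 or 23, and without sham heart 5 the falls numbered 2. Of 17 core clock genes Ciart, Nr1d1 and Cry2 (-0.69) fell, 17.6% against 10.3% of all genes. None rose, also at an unadjusted limma p below 0.05. The list median of -0.37 turned to 0.12 under hybridization spike-in centring, where Ciart and Nr1d1 fell and 1 rose. The time of day of collection is not given, so its part cannot be told apart.

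The 72 h hearts were then compared with the 24 h hearts, in the same fit, to see which of these values had been reached a day after reperfusion. Of all genes 1337 (6.85%) were higher at 72 h than at 24 h and 1183 (6.07%) lower, and the median gene differed by -0.02. At an unadjusted limma p below 0.05 the share that differed was 23.3%. With centring on the hybridization spike-ins 1844 genes were higher and 463 lower, and with the poly-A spike-ins 2624 and 400. The list counts between 24 h and 72 h are given as deposited only, and how they depend on the scaling was not tested. Both time points share the sham arrays, so the comparison with sham at each is given side by side. Mitosis genes were higher at 72 h than at 24 h in 28 of 37 and lower in none (median 1.21), whereas DNA replication genes were lower in 6 of 27 and higher in none, also at an unadjusted limma p below 0.05 (median -0.43). Against sham, where 13.8% of all genes rose and 12.3% fell at 24 h, 22 of the 37 mitosis genes and 20 of the 27 replication genes had risen at that time. Ccnb2 was 5.67 ± 0.61 (SD, n = 4) at 24 h and 9.14 ± 0.56 at 72 h, a difference of 3.47 ± 0.35 (adjusted p = 2.09e-06). Mcm3 was 8.57 ± 0.46 at 24 h and 7.66 ± 0.44 at 72 h, a difference of -0.91 ± 0.25 (adjusted p = 0.0203).

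Between 24 h and 72 h most fibroblast and matricellular genes rose, and the other matrix lists were mixed. Fibroblast markers were higher in 11 of 16 and lower in none (median 1.14), and at 24 h 4 of them were above sham and 4 below. Col1a1 read 9.72, 9.13, 8.84 and 8.83 in the 4 hearts at 24 h, all below the 72 h hearts, a difference of 4.28 ± 0.22 (adjusted p = 7.38e-10). Matricellular genes were higher in 22 of 32 and lower in 1. Collagen chains were higher in 9 of 18 and lower in 2 (median 0.68), and the enzymes that fold and cross-link them in 9 of 18 and lower in 1 (median 0.52). Matrix proteases and their inhibitors were higher in 7 of 24 and lower in 4 (median -0.06). Among the largest rises from 24 h to 72 h were Mfap4, a microfibril protein (-0.57 from sham at 24 h, 4.65 from 24 h to 72 h), the growth factor Ptn (-0.19 and 4.61) and the secreted Wnt antagonists Sfrp2 (-0.03 and 4.29) and Sfrp1 (0.11 and 3.80). Cthrc1 was 0.90 above sham at 24 h and rose by a further 4.78. Timp1 and Tnc did not pass against 24 h, with differences of -0.77 ± 0.50 (adjusted p = 0.405) and 0.41 ± 0.36 (adjusted p = 0.587).

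Recruited macrophage markers had a median difference from sham of 2.92 at 24 h and 3.11 at 72 h, with 5 of 18 higher and 4 lower at 72 h than at 24 h. Ccr2 differed by 0.12 ± 0.46 (adjusted p = 0.927), while Arg1 fell by 2.38 and Ms4a7 rose by 3.28. Genes of lipid-laden macrophages were higher at 72 h than at 24 h in 5 of 12, lysosomal genes in 13 of 18, complement genes in 12 of 14 and interferon-stimulated genes in 11 of 25, with none lower in any of the 4 lists, also at an unadjusted limma p below 0.05. Gpnmb read 7.26, 8.47, 7.87 and 6.28 at 24 h and rose by 5.83. Trem2 rose by 3.10 and Apoe, which was 13.99 ± 0.28 at 24 h, by 3.45. Neutrophil markers were lower in 5 of 13 and higher in none, also at that threshold, and S100a8 fell by 3.72 from 8.95 ± 2.02.

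Many stress genes were lower at 72 h than at 24 h. Fetal and mechanical stress genes were lower at 72 h than at 24 h in 15 of 23 and higher in none at either threshold (median -1.40), with 20 of the 23 above sham at 24 h. Ankrd2, a stretch-responsive muscle protein, read 11.49, 12.87, 12.90 and 11.47 at 24 h and 4.46, 4.02, 4.34 and 4.33 at 72 h, a difference of -7.89 ± 0.55 (adjusted p = 2.21e-08), with all 72 h hearts under the background level. Nmrk2, a kinase of NAD synthesis, fell by 6.22, with its 72 h mean under that level. The small heat shock protein Hspb1 fell by 4.59, the iron-binding protein Lcn2 by 4.20, lubricin Prg4 by 4.05, Ccl2 by 3.98, the small GTPase Rras2 by 3.75 and Nppb by 3.20. The values are of whole tissue, and the cells in which these genes fell were not tested. Nppa did not pass (-0.57 ± 0.28, adjusted p = 0.235). Among the 24 h hearts, heart 16 stood apart in the atrial markers, with a list mean 2.17 above sham where the others stood between -0.08 and 0.07, and its part in the 24 h value of Nppa was not tested. Endoplasmic reticulum chaperones were lower in 10 of 19 and higher in none, with 1 higher at an unadjusted limma p below 0.05 (median -0.74), and actin and tubulin genes lower in 10 of 24 and higher in 1.

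Some metabolic genes were higher at 72 h than at 24 h. Among the fatty acid oxidation genes these were 5 of 26, and 24 of the 26 were below sham at 24 h. Among the branched chain genes they were 6 of 21, and 20 of the 21 were below sham at 24 h. No oxidative phosphorylation subunit passed between the time points in limma, with 1 of 39 higher at an unadjusted limma p below 0.05. No endothelial marker of 23 passed, with none higher and 5 lower at that threshold. Core clock genes were higher at 72 h than at 24 h in 9 of 17 and lower in 3, and Ciart rose by 2.17 between the time points while still below sham. Of the 19505 genes, 61 were called on opposite sides of sham at the time points. Of these 41 were lower at 24 h and higher at 72 h, and 20 were the reverse. For the 9 genes named here the difference between 24 h and 72 h was also called. Lower at 24 h and higher at 72 h were Mmp2 (-1.06 and 1.68, 72 h minus 24 h 2.74), Apoe (-0.53 and 2.92, 3.45), the matricellular thrombospondin Thbs2 (-0.55 and 2.43, 2.99), the complement inhibitor Serping1 (-0.61 and 1.37, 1.98) and Ccl21a (-1.03 and 1.52, 2.55). Higher at 24 h and lower at 72 h were Xirp1 (1.31 and -0.55, -1.86), Csrp3 (0.75 and -0.47, -1.21), Hspa5 (0.76 and -0.73, -1.49) and Hspb1 (3.39 and -1.20, -4.59). None of these 4 was called lower than sham at 72 h under hybridization spike-in centring, with differences of -0.71 for Hspb1, -0.23 for Hspa5, -0.05 for Xirp1 and 0.03 for Csrp3. The call of Hspb1 against sham at 72 h was also lost without any single array but sham heart 5 or 72 h heart 20.

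**Figure D4:**
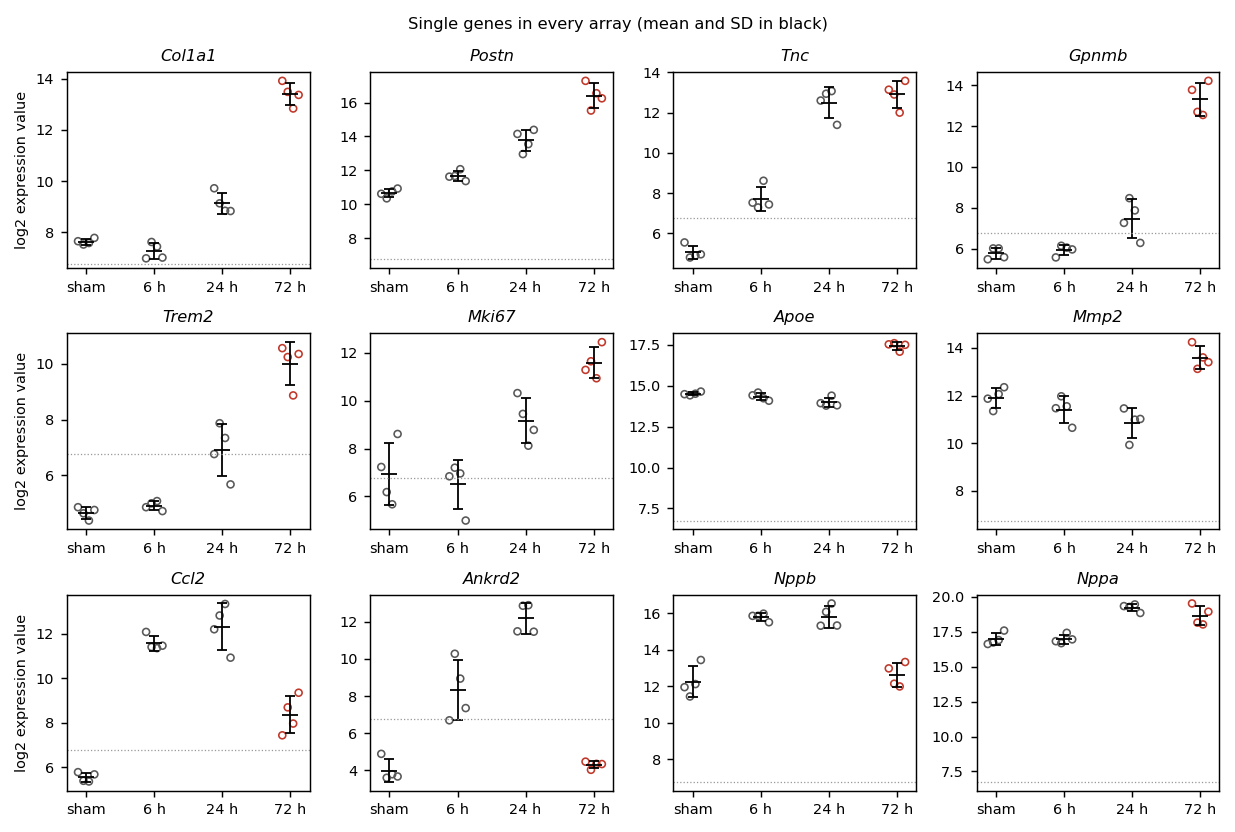
Deposited log2 value (vertical axis) of 12 genes in every heart of the 4 groups, with red circles for 72 h, black bars for the mean and SD, and a dotted line for the background level of 6.76. Col1a1, Postn, Gpnmb, Trem2, Mki67, Apoe and Mmp2 are highest at 72 h, Ccl2, Ankrd2 and Nppb are lower at 72 h than at 24 h, and Tnc and Nppa overlap between those times.

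**Figure D5:**
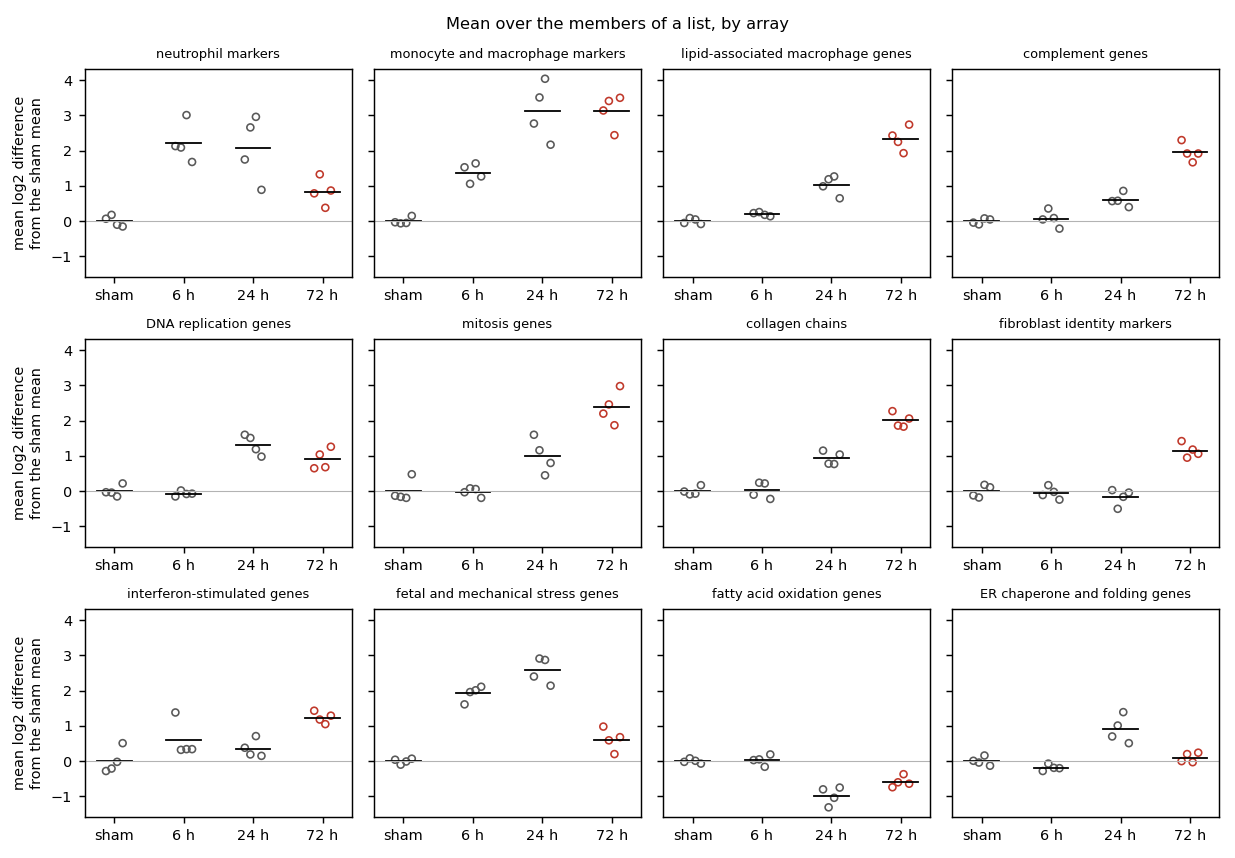
Mean over the members of 12 lists in every heart, as the log2 difference from the mean of the sham hearts (vertical axis), with bars for the group means and red circles for 72 h. Mitosis genes reach 1.87 to 2.98 at 72 h and replication genes stand at 0.65 to 1.26, where the 24 h hearts stand at 0.98 to 1.60. Fetal and mechanical stress genes stand at 2.14 to 2.91 at 24 h and at 0.20 to 0.98 at 72 h.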

How the data were processed

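Total RNA of mouse hearts was hybridized to Affymetrix arrays. The authors deposited 1 log2 expression value per probe set and array, made with Affymetrix Expression Console per the submitters' processing notes, of which the version is not given in the sources used here, nor are the normalization method and the genome build. The identifiers are those of an array annotated by transcript cluster, whereas the design text names another array. The file holds 28846 probe sets on 16 arrays, with array medians between 5.84 and 5.95 and values between 1.83 and 19.82. The platform annotation gave 19572 probe sets 1 gene symbol and 9274 none. Of the named genes 55 had several probe sets, of which the one brightest on average across the 16 arrays stood for the gene, giving 19505 genes. The number of arrays limits the precision, and the median standard error of a difference of 2 group means was 0.183.

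A linear model with 1 mean per group was fitted to all 16 arrays, so that all 4 groups share 1 estimate of the spread, with limma 3.58.1 (lmFit and eBayes) in R 4.3.3. Adjustment of p-values was by Benjamini and Hochberg, across all genes. The fit was tested on simulated data with known changes, in which 200 of 19505 genes differed at 72 h. Of changes of 0.5, 1, 2 and 3 log2 units it recovered 14%, 70%, 98% and 100%, and 9 of its 150 calls were false. More genes were called in the deposited data, so the shares recovered there can differ. Pairs of arrays correlated at 0.958 to 0.99 across genes and none were identical. Each array is from 1 heart, per the design text.

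The gene lists, 46 with 891 genes of which 822 were matched, and the members described were chosen with earlier results of these data known, so neither counts as independent support. Named genes were the 15 largest called rises and falls whose arrays do not overlap and whose higher mean reaches the median probe set (predicted genes and clone names passed over), 16 infarct genes whatever their change, up to 5 largest called changes of each list, and the 8 largest called differences in each direction between 72 h and 24 h. Other genes named with their values were chosen after these were seen, as defining markers or as members that went against their list. Alternatives were other scalings (quantile, median, hybridization spike-ins, poly-A spike-ins), the mean of probe sets, filters on low values, other variance settings, array weights, only the 2 groups, a 2-fold limit, and leaving out each array. Promoter sequences came from the RefSeq promoter table of build GRCm38.p6. Probe sets without a symbol were not used here.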

Additional observations from a re-analysis of the deposited data

Results flagged for a closer look

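Single hearts stood apart from the other 3 of their group in 23 of the 576 sets of 4 values tested (Dixon's test), a rule by which chance marks about 1 set in 20. Sham heart 5 accounted for 12 of the 16 sham cases. It read 18.27 for Ankrd1 where the other sham hearts read 16.62 to 16.79, 11.49 for Egr1 (others 8.33 to 8.81) and 9.47 for Col1a2 (others 8.70 to 8.83). It was the lowest sham heart for Lcn2 (7.38, others 9.95 to 10.40), Vwa3a (7.49, others 8.69 to 8.86), Ncam1 (6.76, others 7.50 to 7.63), Ccr2 (6.81, others 7.16 to 7.22), Cd36 (17.23, others 17.58 to 17.64) and Tnnt2 (18.78, others 18.95 to 18.98). Its list means relative to sham were 0.48 for mitosis genes, 0.15 for recruited macrophage markers and -0.15 for T and NK cell markers. Sham heart 2 was apart for Ankrd2 (4.88) and Siglec1 (4.03), sham heart 3 for Pdk4 (14.25) and sham heart 4 for the protease list mean (0.24).

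Among the 72 h hearts, heart 22 was apart for P2ry1 (8.52, others 7.79 to 7.90), Fap (9.08, others 9.66 to 9.73) and Cpa3 (7.63, others 6.89 to 6.96). Heart 21 was apart for Nqo1 (10.34) and Ccl8 (6.42), heart 23 for the T and NK cell list mean (0.21) and heart 20 for the endothelial list mean (-0.65, others -0.44 to -0.43).

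The effect of reperfusion differed in direction between 24 h and 72 h for 9 genes of the text, each with the difference between the times called in limma. Among all 19505 genes, 61 were called on opposite sides of sham at these times. The difference 72 h minus 24 h was 3.45 for Apoe, 2.99 for Thbs2, 2.74 for Mmp2, 2.55 for Ccl21a and 1.98 for Serping1, which were below sham at 24 h and above it at 72 h. It was -4.59 for Hspb1, -1.86 for Xirp1, -1.49 for Hspa5 and -1.21 for Csrp3, which were above sham at 24 h and below it at 72 h. With the arrays centred on the hybridization spike-ins, none of these 4 was called lower than sham at 72 h.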

How the results depend on the processing

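The counts of genes past the threshold depended on the scaling of the arrays. Centred on the hybridization spike-ins, 7270 genes were higher and 247 lower at 72 h than in sham, and 463 were lower at 72 h than at 24 h. Centred on the poly-A spike-ins, 590 were lower than in sham, 2624 higher than at 24 h and 400 lower than at 24 h. Centred on the median gene, 3532 were lower than in sham. With a limit of 2-fold, 1160 were higher and 310 lower. Under every other alternative these 4 counts stayed within 1.5 times, and leaving out 1 array gave 1858 to 2191 higher and 1343 to 1875 lower. Of 273 named genes, with centring on the hybridization spike-ins 50 kept their direction and lost their call, 13 kept it and gained one, and 6 turned sign. Of these, Cdkn1c (0.02), Fabp4 (0.02), Csrp3 (0.03) and Smtn (0.06) lost their call, and Myl2 (0.42) and Tnnt2 (0.44) gained one. Centring on the poly-A spike-ins ended 33 calls and turned none. Leaving out 1 array ended between 3 and 16 calls and turned none. The cause of these differences was not tested. No paired analysis was possible because the groups share no replicate numbers. The number of arrays limits the precision, with a median standard error of 0.183 on the log2 scale, and genes under the background level in both groups have no fold.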
